A study of Arabidopsis thaliana with 6 samples.

Results

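Cysteine-rich receptor-like kinases (CRKs) were followed in Arabidopsis thaliana seedlings exposed for 1 h to N-linolenoylethanolamine (NAE 18:3), a fatty acid amide of ethanolamine that plants make from membrane lipids. The members were 37 CRK genes chosen by their TAIR gene identifiers, out of 32319 TAIR genes in the deposited table. The rule uses no expression value, but the members were chosen with earlier results of these data known. All 37 were found, and they lay on 37 assembled loci out of 32424. CRK28 and CRK29 shared a joined locus, and CRK14 was spread over 2 loci. By their identifiers, 33 of the genes are on chromosome 4, CRK2 and CRK3 are on chromosome 1, CRK4 is on chromosome 3 and CRK42 is on chromosome 5.

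CRKs sit in the plasma membrane. Each has an extracellular part with DUF26 repeats, which hold conserved cysteines, a membrane-spanning segment, and a serine/threonine kinase inside the cell. The ligands of most CRKs are not known. Many CRK genes are known to be induced by pathogens, salicylic acid, ozone and other sources of reactive oxygen, and several arose by tandem duplication, which leaves neighbouring copies alike in sequence.

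The seedlings were wild type, ecotype Col-0, in both groups. One group received liquid MS medium with sucrose and NAE 18:3 at 100 µM, and the control group the same medium with 0.07% DMSO, the solvent. The labels do not state the DMSO content of the NAE 18:3 medium, and they give the seedling age as 3 days in one place and 4 days in others. RNA came from whole seedlings, with 3 biological replicates and so 3 libraries per group. Values are FPKM, fragments scaled to transcript length and to the mapped fragments of the library, which allows levels of different genes to be compared. In whole seedlings, fewer cells of a type and less RNA per cell cannot be told apart.

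The question was which CRK transcripts differ after this short exposure. Most CRK genes with measurable transcript were higher after NAE 18:3. CRK11 and CRK3 stood out among them. CRK11 went from 1.66 ± 0.088 to 45.3 ± 1.39 FPKM, and CRK3 from 3.63 ± 0.152 to 67.4 ± 1.02 FPKM (mean ± SD, n = 3 each). CRK30 went the other way, from 20.6 ± 0.124 to 3.92 ± 0.602 FPKM.

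Of the 37 member loci, 20 averaged 1 FPKM or more across the 6 libraries and were tested. The same number, 20, reached 1 FPKM in at least 1 library, and 14 did so in all 6. The other 17 were never above 0.915 FPKM, and 6 of them were listed at 0 in every library. Among the 20 tested loci, 16 rose, 3 fell and 1 missed the threshold (limma on log2(FPKM + 1), with p-values adjusted by the Benjamini-Hochberg method over 18194 loci and a threshold of 0.05). Over all tested loci 83.2% were called, 44.1% as higher and 39.2% as lower, so a call by itself says little here. A call with a rise of at least 2-fold on the log2(FPKM + 1) scale was made for 14 of the 20 member loci and for 18.4% of all loci. For a rise of at least 4-fold the counts were 7 of 20 and 6.19%. A fall of at least 2-fold was called at 3 of the 20, against 17.2% of all loci. Of these 3, only CRK30 lies alone on its locus. The others join CRK16 and CRK27 with genes that are not members and that held most of the value. The transcript of CRK16 was never above 0.399 FPKM and that of CRK27 never above 0.966 FPKM, so neither reached 1 FPKM by itself. The 20 also count CRK14 at 2 loci. The median log2 change was 1.61 over the 20 loci and 0.06 over all loci tested, and the middle 50% of all loci ran from -0.64 to 0.73.

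The filter itself bears on these counts. Of the 20 loci, 5 passed it only through the NAE 18:3 group and 1 only through the DMSO group, and such loci had to differ. Those 5 are CRK12, CRK13, both loci of CRK14 and CRK41, and all are among the 14 called with a rise of at least 2-fold. CRK12 and CRK13 are also among the 7 called with at least 4-fold. The joined CRK27 locus, which passed through DMSO, is among the 3 falls of at least 2-fold. The median of 1.61 includes all of these loci. A mean of at least 1 FPKM in both groups was reached by 14 member loci, of which 11 rose, 2 fell and 1 did not pass. The shares of all loci under that condition were not computed. Under the wider filter 44.1% of all loci were higher and 39.2% lower. The groups did not overlap at 19 of the 20 loci, and at 84.6% of all loci.

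**Figure D1:**
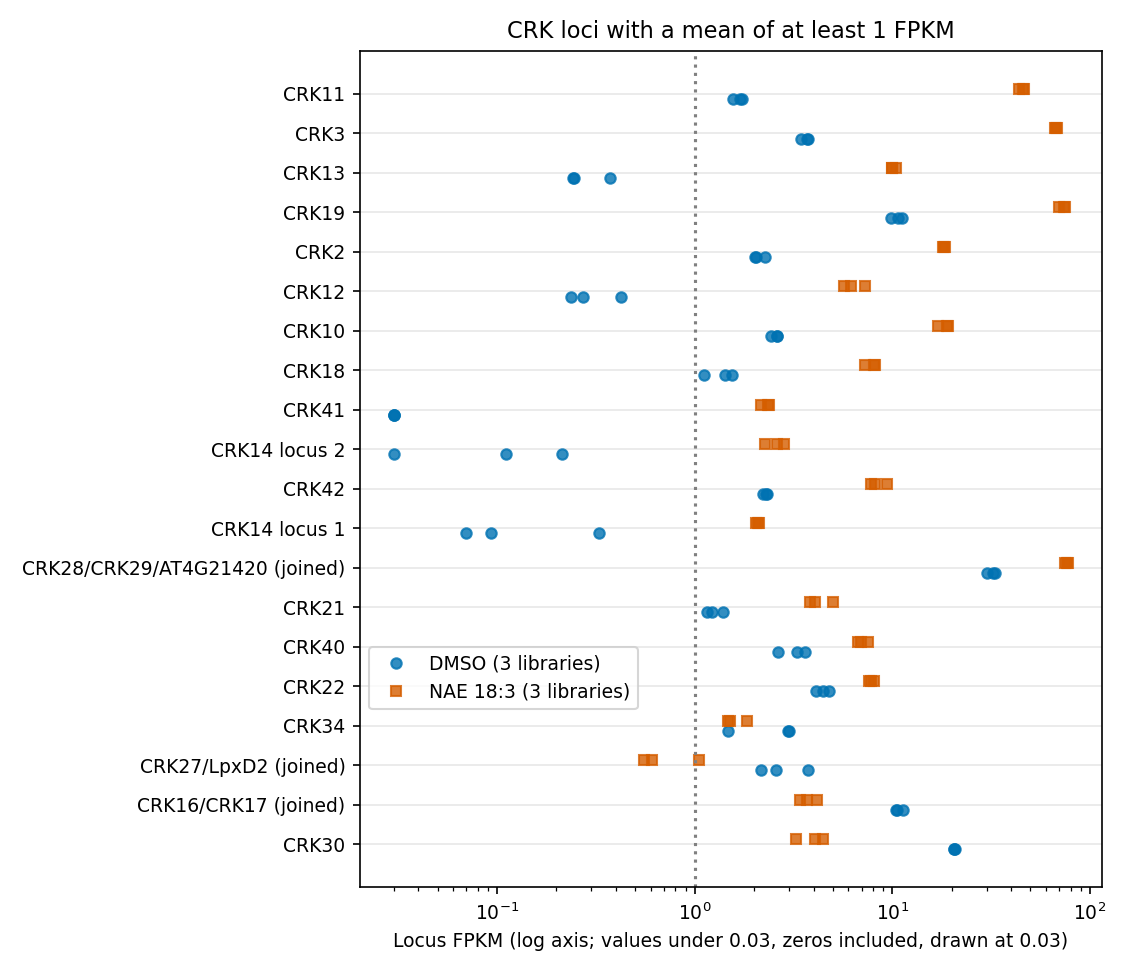
FPKM of each of the 20 tested CRK loci (log axis) in the 3 DMSO libraries (circles) and the 3 NAE 18:3 libraries (squares), ordered by log2 change; values under 0.03, zeros included, are drawn at 0.03. The groups are apart at 19 loci and overlap at CRK34, and CRK11 at the top moves from 1.56–1.73 to 43.7–46.3 FPKM.

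Scaling moves the whole distribution in these data. With each library brought to 1 upper quartile, the median of all loci was -0.25 and 5857 loci were higher and 9497 lower, against 8018 and 7125 on the deposited scale. With quantile normalization the median of all loci was -0.03. The 16 CRK loci that rose and the 3 that fell kept their direction and call under both scalings, and the median of the 20 was 1.41 and 1.73. Summed FPKM over all loci was 688025 to 866221 in DMSO and 991483 to 1140302 after NAE 18:3. A rough depth of the libraries relative to NAE 18:3 replicate 1, read from the steps of low values, at which only 21.8% to 27.2% of the compared loci lay, was 0.482 in DMSO replicate 1 and 0.752 to 1.27 in the other 4. Root and shoot marker genes also moved with the treatment. The summed level of 6 root markers ran from 204 to 228 FPKM in DMSO and from 152 to 167 FPKM after NAE 18:3, with 4 of 5 tested markers lower and PIP2-2 higher. Of those 4, AGP30, EXPA7 and RHD6 passed the filter only through the DMSO group. Without PIP2-2 the sum ran from 107 to 123 FPKM and from 12.8 to 15.1 FPKM. The sum of the shoot markers LHCB2.1 and RBCS1A ran from 20598 to 21898 FPKM and from 33376 to 36202 FPKM. None of these markers was at 0 in any library, and their part in the CRK results was not tested.

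The largest group of CRK genes is the tandem cluster from CRK5 to CRK24, with 18 member genes on 19 loci. Of its 11 tested loci, 10 rose and 1 fell, while 44.1% of all loci were higher and 39.2% lower. Among the 10 that rose, CRK12, CRK13 and both loci of CRK14 passed the filter only through the NAE 18:3 group. Summed over the 19 loci, the level was 33.0, 35.3 and 35.0 FPKM in the DMSO libraries and 182, 184 and 181 FPKM in the NAE 18:3 libraries. CRK11 (AT4G23190), described in the deposited table as induced by the vascular bacterium Ralstonia solanacearum, stood at 1.56, 1.73 and 1.70 FPKM in DMSO and at 43.7, 46.3 and 45.8 FPKM after NAE 18:3. Its mean was 27.3 times higher, and the fitted log2 change was 4.12 ± 0.06 (± standard error here and below, adjusted p = 8.5e-11 by limma). The 2 groups were far apart. Only 0.819% of all tested loci had a log2 change at or above this one.

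CRK13 (AT4G23210), whose overexpression is known to raise salicylic acid and resistance to bacteria, stood at 0.242, 0.375 and 0.245 FPKM in DMSO and at 10.4, 9.95 and 9.95 FPKM after NAE 18:3. All 3 DMSO libraries were under 1 FPKM, the ratio of the means was 35.1, and the log2 change was 3.11 ± 0.09 (adjusted p = 3.8e-09 by limma). CRK12 (AT4G23200), the next gene, had 0.237, 0.273 and 0.424 FPKM in DMSO against 6.21, 7.30 and 5.73 FPKM, and rose by 2.50 ± 0.12 on the log2 scale (adjusted p = 9.1e-08 by limma). CRK14 (AT4G23220) was low in DMSO at both of its loci. The first held 0.0933, 0.329 and 0.0697 FPKM in DMSO and 2.09, 2.12 and 2.04 FPKM after NAE 18:3, and the second 0.111, 0.213 and 0 FPKM against 2.62, 2.27 and 2.83 FPKM. Their log2 changes were 1.41 ± 0.13 and 1.69 ± 0.13 (adjusted p = 1.1e-05 and 3.1e-06 by limma). These 4 loci passed the filter only through the NAE 18:3 group.

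CRK10 (AT4G23180), next to CRK11, stood at 2.61, 2.62 and 2.43 FPKM in DMSO and 17.1, 19 and 19.1 FPKM after NAE 18:3, and rose by 2.45 ± 0.07 on the log2 scale (adjusted p = 3.3e-09 by limma). CRK19 (AT4G23270) is one of the CRKs whose forced expression is known to trigger cell death resembling the hypersensitive response. It stood at 9.84, 11.2 and 10.7 FPKM in DMSO and at 75.1, 74.1 and 69.9 FPKM after NAE 18:3 (log2 change 2.68 ± 0.06, adjusted p = 5.8e-10 by limma). That made it the most abundant CRK of the cluster in NAE 18:3 libraries. CRK18 (AT4G23260) moved from 1.54, 1.43 and 1.11 FPKM to 8.21, 7.28 and 8.09 FPKM (log2 change 1.91 ± 0.10, adjusted p = 1.7e-07 by limma). The groups lay well apart for all 3 of these genes.

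The smallest rises of the cluster were those of CRK21 and CRK22. CRK21 (AT4G23290) stood at 1.22, 1.39 and 1.15 FPKM in DMSO and 3.84, 4.07 and 4.99 FPKM after NAE 18:3 (log2 change 1.23 ± 0.11, adjusted p = 8.0e-06 by limma). CRK22 (AT4G23300) had 4.10, 4.47 and 4.79 FPKM in DMSO and 7.79, 7.62 and 8.08 FPKM after NAE 18:3 (log2 change 0.70 ± 0.07, adjusted p = 2.1e-05 by limma). Neither gene had overlapping groups. A rise of that size or more was found at 25.9% of all loci.

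The locus that fell in the cluster joins CRK16 (AT4G23240) with CRK17 (AT4G23250, also EMB1290), which is not a member. It held 10.6, 10.4 and 11.4 FPKM in DMSO and 4.16, 3.40 and 3.70 FPKM after NAE 18:3 (log2 change -1.31 ± 0.08, adjusted p = 5.1e-07 by limma). In the deposited transcript values nearly all of it was assigned to CRK17, with 10.3, 10.2 and 11 FPKM in DMSO and 4.16, 3.37 and 3.40 FPKM after NAE 18:3. CRK16's own transcript was never above 0.399 FPKM. The fall is therefore that of the joined locus, not a measurement of CRK16.

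**Figure D2:**
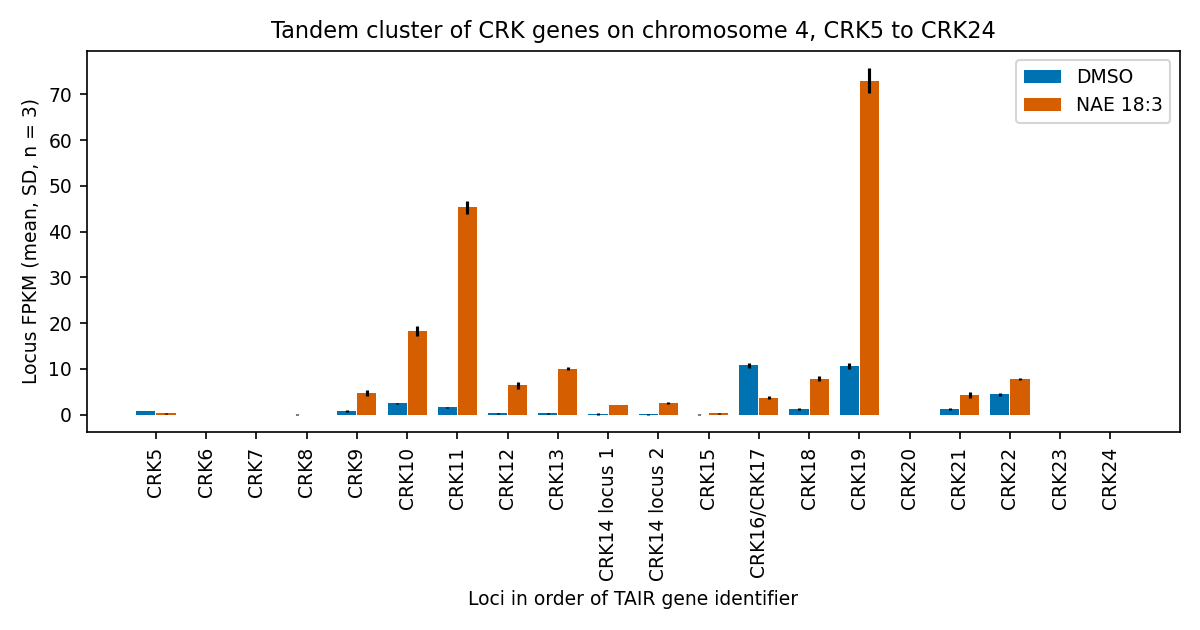
Mean FPKM (bars from 0, with SD, n = 3) of the loci of the CRK5 to CRK24 cluster in the order of their gene identifiers, DMSO in blue and NAE 18:3 in orange; CRK9, which lies inside the cluster and is no member, is included. CRK19, CRK11 and CRK10 are the tallest NAE 18:3 bars at 73.0, 45.3 and 18.4 FPKM, and the joined CRK16 and CRK17 locus falls from 10.8 to 3.76 FPKM.

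CRK2 and CRK3 are neighbours on chromosome 1. CRK2 (AT1G70520), known to phosphorylate the NADPH oxidase RBOHD and to be needed for full reactive oxygen production, stood at 2.03, 2.04 and 2.26 FPKM in DMSO. After NAE 18:3 it stood at 18.2, 18.4 and 18.1 FPKM, 8.64 times higher (log2 change 2.63 ± 0.06, adjusted p = 1.4e-09 by limma). CRK3 (AT1G70530) stood at 3.46, 3.75 and 3.69 FPKM and at 66.5, 68.5 and 67.2 FPKM. Its log2 change of 3.89 ± 0.05 came after that of CRK11 among the members (ratio of means 18.6, adjusted p = 5.1e-11 by limma), and 1% of all loci rose by as much or more. The 3 values of either group were close together for both genes.

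CRK28 (AT4G21400) and CRK29 (AT4G21410) are both linked to immunity, and CRK28 is known to associate with the co-receptor kinase BAK1. They share a joined locus with AT4G21420, an uncharacterized gene. The locus held 33.3, 30.3 and 32.3 FPKM in DMSO and 74.6, 76.6 and 77.5 FPKM after NAE 18:3, 2.38 times higher (log2 change 1.23 ± 0.04, adjusted p = 1.4e-08 by limma), with no overlap. Transcripts assigned to CRK29 accounted for 32.6, 29.9 and 31.8 FPKM in DMSO and 73.6, 76.3 and 76.3 FPKM after NAE 18:3, while the transcript of CRK28 was listed at 0 in all 6 libraries. Whether the authors' software divided reads between them correctly cannot be read from these files.

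Outside the clusters, CRK42 (AT5G40380) went from 2.21, 2.32 and 2.30 FPKM to 7.80, 9.39 and 8.20 FPKM (log2 change 1.53 ± 0.08, adjusted p = 2.8e-07 by limma). CRK41 (AT4G00970) was listed at 0 in all 3 DMSO libraries and stood at 2.36, 2.17 and 2.38 FPKM after NAE 18:3, so no fold is given (adjusted p = 1.2e-06 by limma). It passed the filter only through the NAE 18:3 group, and a value of exactly 0 can be a failed estimate. CRK40 (AT4G04570), the tested member of the CRK36 to CRK40 cluster, had 3.61, 2.64 and 3.30 FPKM in DMSO and 6.73, 7.53 and 6.97 FPKM after NAE 18:3, with no overlap (log2 change 0.95 ± 0.10, adjusted p = 2.3e-05 by limma).

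Of the 5 loci of the CRK30 to CRK34 cluster only 2, CRK30 and CRK34, were tested, and neither rose. CRK31, CRK32 and CRK33 were under the filter. CRK30 (AT4G11460) stood at 20.7, 20.5 and 20.5 FPKM in DMSO and at 3.27, 4.45 and 4.05 FPKM after NAE 18:3. The log2 change came to -2.14 ± 0.09 (adjusted p = 4.4e-08 by limma), and 96.8% of all loci had a higher or equal value. Of the 3 loci that fell it was the only one with a single member gene on it and no other gene. CRK34 (AT4G11530) stood at 3.00, 1.48 and 2.98 FPKM in DMSO and at 1.47, 1.84 and 1.51 FPKM after NAE 18:3, with overlap, and did not pass (log2 change -0.39 ± 0.19, adjusted p = 0.086 by limma). DMSO replicate 2 was the low library. Without it the log2 change was -0.62 (adjusted p = 0.0015 by limma), and with upper-quartile scaling it was again -0.62 (adjusted p = 0.017). An assembled transcript with no TAIR name held 1.84, 0.374 and 1.89 FPKM of the locus in DMSO, while the transcripts named for CRK34 held 1.15, 1.11 and 1.08 FPKM.

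The third locus that fell joins CRK27 (AT4G21230) with LpxD2 (AT4G21220), a gene of a trimeric LpxA-like enzyme. It stood at 3.73, 2.17 and 2.58 FPKM in DMSO and at 0.555, 1.05 and 0.608 FPKM after NAE 18:3 (log2 change -1.13 ± 0.18, adjusted p = 3.3e-04 by limma), and passed the filter only through the DMSO group. Transcripts of LpxD2 held 2.76, 1.98 and 1.98 FPKM of it in DMSO and 0.555, 0.676 and 0.503 FPKM after NAE 18:3. The transcript of CRK27 held 0.966, 0.185 and 0.596 FPKM in DMSO and 0, 0.372 and 0.106 FPKM after NAE 18:3, and those ranges overlap. With joined loci left out, 1 of 17 CRK loci was lower, CRK30, and 15 were higher. Of all 17591 loci tested that way, 6926 were lower and 7744 higher.

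**Figure D3:**
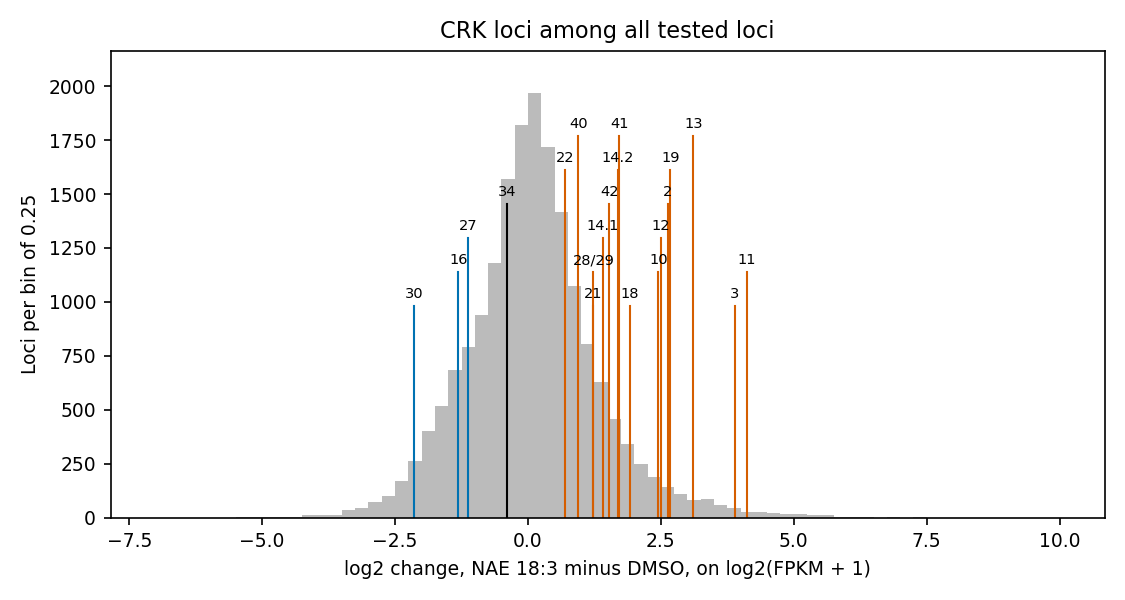
Histogram of the log2 change (log2(FPKM + 1) after NAE 18:3 less that in DMSO) of 18194 tested loci in bins of 0.25, with a vertical line for each of the 20 CRK loci, labelled by CRK number (CRK14 has a line for each of its 2 loci, and line heights carry no value). Orange lines rose, blue lines fell and the black line, CRK34, did not pass; the lines run from -2.14 for CRK30 to 4.12 for CRK11.

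Several loci hold more than 1 assembled transcript, and the deposited transcript values divide the locus between them. At CRK19 the leading transcript, AT4G23270.1, held 79.6% of the locus in DMSO and 82.2% after NAE 18:3, and at CRK10 the leading transcript held 84.3% and 98.5%. CRK13 has 6 transcripts, led by AT4G23210.2 with 43.5% in DMSO and by AT4G23210.3 with 35.8% after NAE 18:3. CRK3 also has 6, and its leading transcript held 64.8% in DMSO while another assembled transcript led with 40.5% after NAE 18:3. Both carry the same TAIR name, AT1G70530.1. CRK13 was under 1 FPKM in DMSO, and no change in transcript shares was tested.

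The order of the levels differed between the groups. In DMSO the CRK28 and CRK29 locus was highest at 32.0 ± 1.53 FPKM and held 30.8% of the summed FPKM of the member loci, followed by CRK30 at 20.6 ± 0.124 FPKM. The joined CRK16 and CRK17 locus at 10.8 ± 0.543 FPKM and CRK19 at 10.6 ± 0.694 FPKM came next and did not differ beyond their spread. After NAE 18:3 the CRK28 and CRK29 locus, at 76.2 ± 1.47 FPKM, and CRK19, at 73.0 ± 2.76 FPKM, overlapped at the top, followed by CRK3 and CRK11. CRK10 at 18.4 ± 1.09 FPKM and CRK2 at 18.2 ± 0.155 FPKM came after them and did not differ beyond their spread. CRK30 was not among the 12 highest there. Summed over all 37 loci the level was 106, 101 and 105 FPKM in DMSO and 364, 375 and 368 FPKM after NAE 18:3. This sum, and the share above, include CRK17, LpxD2 and AT4G21420, which are not members but lie on joined loci.

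Among the 17 loci under the filter, 11 were above 0 in some library. CRK5 (AT4G23130), linked to abscisic acid signalling and senescence, had 0.787, 0.755 and 0.915 FPKM in DMSO and 0.309, 0.401 and 0.280 FPKM after NAE 18:3. Of these loci it came nearest to 1 FPKM in a single library, while the tested locus with the lowest mean was that of CRK14 at 1.12 FPKM. CRK36 (AT4G04490), known to interact with the cytosolic kinase ARCK1 in osmotic stress, had 0.111, 0.0356 and 0.111 FPKM in DMSO and 0.214, 0.299 and 0.211 FPKM after NAE 18:3. With no filter, CRK5 was called lower and CRK4, CRK15 and CRK36 higher, with log2 changes of -0.45, 0.26, 0.32 and 0.19 (adjusted p = 5.6e-04, 0.0033, 0.0026 and 0.012 by limma). Of all 24155 loci tested without the filter, 8465 were higher and 8375 lower, so such calls say little. The share among low loci alone was not computed. CRK6, CRK8, CRK23, CRK24, CRK26, CRK31 and CRK39 were not called. CRK7, CRK20, CRK32, CRK33, CRK37 and CRK38 were listed at 0 throughout.

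Tandem copies can share reads, so their likeness was taken from the RefSeq TAIR10.1 annotation and its own genome. Coding identity of each member to the closest other member ran from 41.6% to 86.5%, the latter between CRK19 and CRK20. Windows of 50 bases within coding exons show where a read of that length could not be placed on 1 gene. No such window was found elsewhere in the genome for 13 members, among them CRK2, CRK3, CRK12, CRK14, CRK21, CRK30 and CRK42. The share was over 10% for 4 members. CRK13 and CRK22 shared 365 windows with each other, 21.7% and 22.3% of theirs. Reads of 50 bases inside those windows could not be told apart, and longer or paired reads were not examined. CRK13 rose from under 1 FPKM and CRK22 from 4.45 FPKM. CRK6 and CRK8, both near 0, were the other 2. For CRK11 the share was 0.421%, for CRK10 0.48% and for CRK19 3.92%.

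Upstream sequence was searched for the W-box, the site recognised by WRKY transcription factors, as TTGACC or TTGACT on either strand. A match to either form counted as 1, and the 2 forms cannot start at the same base. In the 250 bases before the annotated gene start, 23 of 37 members held at least 1, or 62.2%, against 7797 of 27443 protein-coding genes, or 28.4%. At least 2 were found in 27% of the members and 6.18% of all genes. CRK11 held 4 and CRK5 held 3. A match was held by 6 of the 16 member genes on loci that rose, 2 of the 3 on loci that fell and 14 of the 17 on untested loci, and these shares were not tested against each other. CRK2, CRK3, CRK10, CRK13 and CRK19 held none in this window. Duplicated genes can share upstream sequence, so the members are not independent in these counts, and a match is not a known binding site.

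Most listed genes of the surrounding immune pathway were higher as well. The list holds 24 immune receptors, partner kinases, NADPH oxidases, WRKY factors and salicylic acid genes. It was chosen with earlier results of these data known, so its counts only describe the listed genes. Of the 22 tested, 19 rose, 2 fell and RBOHF missed the threshold. These are 86.4% higher and 9.09% lower, against 44.1% and 39.2% of all loci. The median log2 change of the 22 tested genes was 1.03, against 0.06 over all loci. BIK1 (AT2G39660), a cytoplasmic kinase under several immune receptors, stood at 8.58, 7.30 and 8.10 FPKM in DMSO and at 73.0, 72 and 75.6 FPKM after NAE 18:3 (log2 change 3.05 ± 0.06, adjusted p = 4.0e-10 by limma). RBOHD (AT5G47910), the NADPH oxidase that CRK2 phosphorylates, stood at 6.27, 7 and 5.89 FPKM in DMSO and at 36.9, 35.7 and 37.6 FPKM after NAE 18:3 (log2 change 2.36 ± 0.06, adjusted p = 2.8e-09 by limma). BAK1 (AT4G33430), the co-receptor kinase, moved less, from 21.9, 19.9 and 18.3 FPKM to 37.4, 39.8 and 39.5 FPKM (log2 change 0.93 ± 0.06, adjusted p = 1.4e-06 by limma). The groups did not overlap for any of these genes.

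Among the WRKY factors, WRKY33 (AT2G38470) went from 2.64, 3.44 and 3.37 FPKM to 156, 150 and 156 FPKM (log2 change 5.23 ± 0.08, adjusted p = 1.0e-10 by limma). WRKY18 (AT4G31800), known to bind W-boxes of defence genes, went from 14.4, 13 and 13.6 FPKM to 88.8, 86.5 and 90.5 FPKM (log2 change 2.61 ± 0.05, adjusted p = 2.4e-10 by limma). WRKY60 (AT2G25000), a relative of WRKY18, fell from 1.74, 1.54 and 2.02 FPKM to 0.326, 0.188 and 0.257 FPKM (log2 change -1.14 ± 0.13, adjusted p = 3.8e-05 by limma). Its mean over the 6 libraries was 1.01 FPKM, so it passed the filter only through the DMSO group and had to be lower after NAE 18:3. ICS1 (AT1G74710), isochorismate synthase of the salicylic acid pathway, stood at 12.5, 12.4 and 12.8 FPKM in DMSO and at 10.3, 11.1 and 10.7 FPKM after NAE 18:3 (log2 change -0.22 ± 0.05, adjusted p = 0.0042 by limma). For the NADPH oxidase RBOHF (AT1G64060) the log2 change was -0.26 (adjusted p = 0.058), and its groups overlapped. PR1 (AT2G14610) and FRK1 (AT2G19190), common markers of salicylic acid and flagellin responses, were under the filter, and PR1 held 0.850, 0.544 and 0.507 FPKM in DMSO and 0.164, 0 and 0.130 FPKM after NAE 18:3.

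A list of CRK genes outside the members and of related DUF26 proteins, called other DUF26 proteins below, was higher and lower in shares near those of all loci. Of 19 listed genes 2 were not analysed here, and of 13 tested loci, one of them the joined CRK16 and CRK17 locus, 6 rose and 5 fell. These are 46.2% and 38.5%, against 44.1% and 39.2% of all loci. The remaining 2 missed the threshold, and the median log2 change was 0.02. AT3G22060, annotated with the DUF26 domain and no kinase domain, stood at 3.82, 2.67 and 2.02 FPKM in DMSO and at 337, 321 and 326 FPKM after NAE 18:3 (log2 change 6.45 ± 0.14, adjusted p = 8.6e-10 by limma). CRK9 (AT4G23170, also EP1), inside the CRK5 to CRK24 cluster, went from 0.560, 1.15 and 0.836 FPKM to 4.53, 4.32 and 5.59 FPKM (log2 change 1.66 ± 0.14, adjusted p = 5.9e-06 by limma). CRK45 (AT4G11890, also ARCK1), the cytosolic osmotic stress kinase, is listed here by its CRK name. It went from 0, 0.0591 and 0.236 FPKM to 2.30, 1.89 and 2.30 FPKM (log2 change 1.53 ± 0.14, adjusted p = 8.3e-06 by limma). The groups of these 3 genes did not overlap. CRK9, CRK45 and PDLP1, which are 3 of the 6 loci that rose, passed the filter only through the NAE 18:3 group, and such loci had to be higher there. CRK25 (AT4G05200), named after its values were seen, had a mean under 1 FPKM and was not tested, with 1.23, 1.40 and 1.26 FPKM in DMSO and 0.0540, 0.159 and 0.112 FPKM after NAE 18:3.

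Plasmodesmata-located proteins (PDLPs), which carry DUF26 domains but no kinase, were mixed. PDLP3 (AT2G33330) went from 41.2, 37.7 and 39.4 FPKM to 13.8, 12.0 and 12.0 FPKM, and PDLP2 (AT1G04520) from 24.8, 25.6 and 22.1 FPKM to 5.81, 6.93 and 7.44 FPKM. The log2 changes of these 2 genes were -1.57 ± 0.06 and -1.71 ± 0.09 (adjusted p = 3.5e-08 and 2.1e-07 by limma). PDLP5 (AT1G70690), named after its values were seen, rose by 0.64 ± 0.08 (adjusted p = 5.8e-05).

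**Figure D4:**
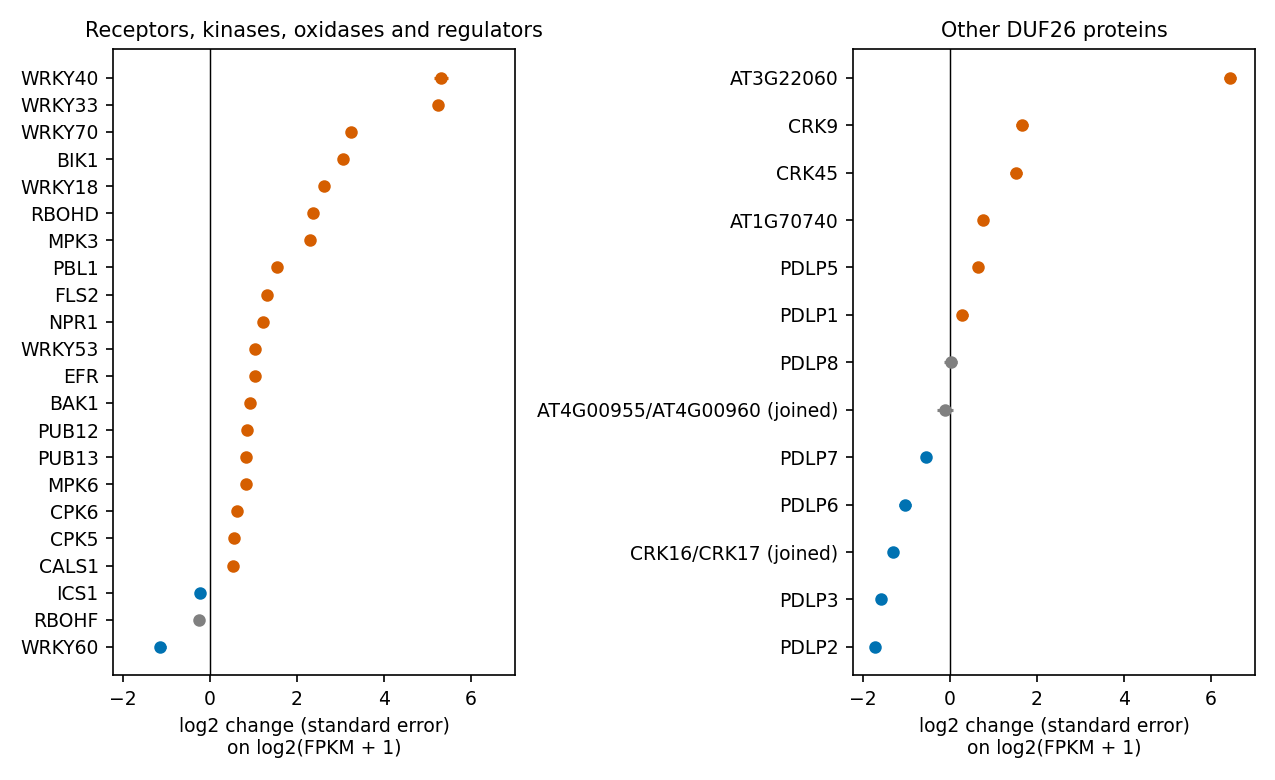
Log2 change with its standard error (limma, log2(FPKM + 1) after NAE 18:3 less that in DMSO, 3 libraries per group) of the 22 tested genes of the partner list (left) and the 13 tested loci with other DUF26 proteins (right); orange rose, blue fell and grey did not pass. The left panel runs from -1.14 for WRKY60 to 5.30 for WRKY40, and the right panel from -1.71 for PDLP2 to 6.45 for AT3G22060.

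Other families of receptor kinases, taken by the wording of their annotated products after the CRK values were known, were summarised in the same way. Leucine-rich repeat kinases had 46 of 123 tested loci higher and 56 lower, with a median log2 change of -0.09. Lectin receptor kinases had 20 of 40 higher and 12 lower (median 0.16), and wall-associated kinases 8 of 11 higher and 1 lower (median 0.85). Over 962 tested loci outside the members whose product names a kinase, 54.7% were higher and 30.4% lower, with a median of 0.27. All tested loci had 44.1% higher and 39.2% lower, with a median of 0.06. These are descriptions, and the difference of the CRK loci from them was not tested. Loci that passed the filter through 1 group only were not counted in these families.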

How the data were processed

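Per the submitters' processing notes, the authors processed the reads with TopHat, Cufflinks and Cuffdiff against TAIR9, and versions and settings are not given in the sources used here. The deposited table holds 61448 transcripts of 32424 loci with an FPKM value per transcript and per locus in each library. The unit follows from those notes and the values. The codes in the sample descriptions tied each column to its library, and 4 columns of merged values were not used. The 18194 loci averaging 1 FPKM or more were tested on log2(FPKM + 1). The model, fitted in limma 3.58.1 (R 4.3.3) to all 6 libraries, held treatment alone, and its empirical Bayes step used the mean-variance trend. A locus was called at a Benjamini-Hochberg adjusted p under 0.05 over all tested loci. Changes of loci near 0 are understated on this scale. Whole fragments could not be recovered from the FPKM steps, with 21.8% to 27.2% of low loci at the common step, so no count model or counting interval is given. Names, coding identity and upstream windows came from RefSeq TAIR10.1, read with its own genome. Because that build differs from TAIR9, no coordinates or sequences are given. The members, the lists and the rule for named genes (every tested member in each library, and in each list up to 3 rises and 3 falls with the smallest adjusted p, with BIK1, BAK1 and RBOHD) were chosen with earlier results of these data known. Gene symbols of AT1G70740, AT4G00960 and AT4G28670 are not in that annotation, and their identifiers are used. The alternatives were other pseudocounts, filters, scalings and variance models, a replicate block, each library left out, joined loci left out and summed transcripts.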

Additional observations from a re-analysis of the deposited data

How the results depend on the processing

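Calls of the CRK loci held under most alternatives. The 19 called loci kept their call and direction under every alternative in which they were tested, and CRK34 was the only exception among the 20, being called lower with upper-quartile scaling and without DMSO replicate 2 (log2 change -0.62 in both). With at least 5 FPKM, which left 12 CRK loci to test, 12 changed and 10 were higher, and other DUF26 proteins had 6 changed. Of all 13495 loci tested with that filter, 11702 changed and 6893 were higher. With joined loci left out, 1 of 17 CRK loci was lower, against 6926 of all 17591 loci tested. The median log2 change of the tested CRK loci was 2.62 with a pseudocount of 0.1, 2.08 with 0.5 and 0.70 with no filter, when 31 loci were tested. Same-numbered libraries did not deviate together (r of -0.0133, -0.00872 and 0.0182 across loci). Such values cannot show whether the numbers mark a shared day or batch, which the labels do not state. The replicate block left 19 CRK loci, 22 partner genes, 10 other DUF26 proteins and 15012 loci called. Leaving out each library in turn gave 19 to 20 changed CRK loci, 16 to 16 higher and 3 to 4 lower, a median of 1.58 to 1.63, 21 to 22 partner genes, 10 to 11 other DUF26 proteins and 14616 to 15004 loci. The depth of the libraries is not known from these values, which limits what can be said of loci listed at 0.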
